A study of Mus musculus with 4 samples.

Results

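Pericyte identity genes were followed in bone stromal cells after loss of LATS2, a kinase of the Hippo pathway, from endothelial cells (ECs). The 8 genes Rgs5, Rgs4, Kcnj8, Abcc9, Cspg4, Aoc3, Higd1b and Cygb were taken by symbol from the 53703 features of the deposited matrices, and each symbol occurred in all 4 libraries. Droplet single-cell RNA sequencing with the 10x Chromium 3′ kit had been run on mouse bone at postnatal week 12, with 2 libraries from Lats2 iΔEC mutants and 2 from littermate controls. The mutants carried floxed Lats2 alleles and the Cdh5(PAC)-CreERT2 transgene, which is driven by the promoter of the endothelial cadherin Cdh5, and had received tamoxifen on 5 days in a row at 4 to 5 weeks of age. The controls were littermates without Cre, which per the study's methods had the same course of tamoxifen, although their labels read untreated. The Cdh5(PAC)-mT/nG reporter had been bred into mutant and control backgrounds, and the labels do not say which libraries carried it. Cells came from the dissected metaphysis of femur and tibia after depletion of lineage-positive, CD45+ and CD117+ blood cells. Nothing in the labels ties a library to a number of animals, so the p-values measure the spread between these libraries.

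Pericytes are the mural cells that wrap capillaries and small venules, and smooth muscle cells wrap arteries and arterioles. Both cell types set vessel tone, steady the endothelium and are among the cells considered as sources of scar-forming myofibroblasts, yet no single transcript marks pericytes alone. The 8 genes are therefore read as a set. RGS5 and RGS4 speed up the hydrolysis of GTP by G-protein alpha subunits and so dampen signals from vasoactive receptors. KCNJ8 (Kir6.1) is the pore and ABCC9 (SUR2) the regulatory subunit of an ATP-sensitive potassium channel that hyperpolarizes vascular cells. CSPG4 is the NG2 chondroitin sulfate proteoglycan of the cell surface and AOC3 is vascular adhesion protein 1, a membrane amine oxidase. HIGD1B belongs to a family of small hypoxia-induced mitochondrial proteins and CYGB, cytoglobin, is a heme globin of fibroblast-like and perivascular cells.

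Members of 2 of these pairs lie next to each other in the genome. In the GENCODE M39 annotation of GRCm39, Rgs5 (ENSMUSG00000026678, chr1:169483036-169524887, plus strand) and Rgs4 (ENSMUSG00000038530, chr1:169569046-169575218, minus strand) were 44.2 kb apart with 0 protein-coding genes between them. Kcnj8 (ENSMUSG00000030247, chr6:142510563-142517830) and Abcc9 (ENSMUSG00000030249, chr6:142533588-142648571), both on the minus strand, were 15.8 kb apart, also with 0 protein-coding genes between them. Cspg4 (ENSMUSG00000032911) lay at chr9:56772317-56807187 on the plus strand, Aoc3 (ENSMUSG00000019326) at chr11:101221370-101232962 and Higd1b (ENSMUSG00000020928) at chr11:102726404-102735661, both on the plus strand, and Cygb (ENSMUSG00000020810) at chr11:116535970-116545406 on the minus strand. Abcc9, Aoc3, Higd1b and Cygb overlapped genes of the other strand (5330439B14Rik and Gm68359, Gm28156, Eftud2 and Prcd). The counting mode named in the study's methods takes strand into account, and how reads in those overlaps were placed was not tested.

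The promoters of both neighbouring pairs are shown because each pair shares a genomic neighbourhood and is described gene by gene in what follows. They are the 250 bases before the start of each gene from RefSeq (GRCm38.p6), 5′ to 3′ on the strand of the gene, for Rgs5 (chr1:169655251-169655500), Rgs4 (chr1:169747643-169747892), Kcnj8 (chr6:142571615-142571864) and Abcc9 (chr6:142702275-142702524). Capitals mark matches on either strand to CCAAT, to TATAAA, to the RBPJ motif TGGGAA of Notch signalling and to the TEAD motif GGAATG of YAP1/TAZ signalling.
Rgs5: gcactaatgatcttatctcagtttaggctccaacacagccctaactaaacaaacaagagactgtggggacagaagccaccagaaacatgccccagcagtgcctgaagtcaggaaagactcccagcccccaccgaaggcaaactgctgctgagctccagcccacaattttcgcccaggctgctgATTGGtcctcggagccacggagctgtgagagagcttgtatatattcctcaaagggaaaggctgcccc
Rgs4: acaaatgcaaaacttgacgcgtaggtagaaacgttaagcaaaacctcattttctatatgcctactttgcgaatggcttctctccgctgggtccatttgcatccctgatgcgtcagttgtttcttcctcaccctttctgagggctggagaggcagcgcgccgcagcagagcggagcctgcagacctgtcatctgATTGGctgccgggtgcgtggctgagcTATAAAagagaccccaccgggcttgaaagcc
Kcnj8: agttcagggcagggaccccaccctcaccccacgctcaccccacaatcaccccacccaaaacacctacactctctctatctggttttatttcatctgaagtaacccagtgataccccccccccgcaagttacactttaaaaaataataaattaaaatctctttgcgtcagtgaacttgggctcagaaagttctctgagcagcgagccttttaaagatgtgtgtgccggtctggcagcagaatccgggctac
Abcc9: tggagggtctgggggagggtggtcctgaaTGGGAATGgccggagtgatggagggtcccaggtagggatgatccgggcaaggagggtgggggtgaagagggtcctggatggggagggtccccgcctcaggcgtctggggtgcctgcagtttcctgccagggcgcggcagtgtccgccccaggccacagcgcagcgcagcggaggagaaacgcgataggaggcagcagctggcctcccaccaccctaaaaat
Rgs5 and Rgs4 each held 1 match to CCAAT, in its inverted form ATTGG, and Rgs4 also held 1 to TATAAA. In Abcc9 the match to TGGGAA and the match to GGAATG overlapped in one run. Kcnj8 held no match to any of these, nor to the CArG box of serum response factor, and the promoter of Cspg4 held none either. Among 32536 windows of the same length, 33.8% held CCAAT, 12.3% TATAAA, 21.6% TGGGAA, 12.6% GGAATG and 1.48% a CArG box, so single matches of the first 4 were common. Promoters were found for 5 of the 8 members, and Aoc3, Higd1b and Cygb were not matched.

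The 4 libraries held 69636600 to 85899079 unique molecular identifiers (UMIs). Of the barcodes with at least 1000 UMIs and 800 detected features (5749 and 6703 mutant, 7606 and 7649 control), 5119 and 5887 mutant and 6813 and 6780 control barcodes passed the filters on mitochondrial and hemoglobin share and complexity, with medians of 7574 to 8181 UMIs. Any pair of libraries shared 6 to 16 barcodes. In ECs Lats2 stood at 90.9 and 96.7 CPM in the mutant and 132 and 121 CPM in the control libraries (log2 fold change -0.36 ± 0.07 SE, adjusted p = 5.07e-04, p adjusted by the Benjamini-Hochberg method after a quasi-likelihood test in edgeR). CPM here scales the summed counts of a class to the UMI total of that class in the library. Whether 3′ reads cover the floxed exons is not given in the sources used here. The transgene transcript Cre-ERT2 gave 282 and 318 counts in mutant ECs against 4 and 5 in control ECs, and 1, 0, 0 and 0 counts in mural-like cells. In mural-like cells Lats2 was 54.8 and 61.9 CPM against 65.9 and 64.4 CPM (log2 fold change -0.12 ± 0.12 SE, adjusted p = 0.431).

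Mural-like cells were the cells of 2 clusters with high scores for 16 mural markers (Myh11, Acta2, Tagln, Notch3, Mcam and others), none of them one of the 8 genes, and the 8 genes were left out of clustering. They numbered 473 and 548 in the mutant and 289 and 313 in the control libraries. One cluster of 972 cells was led by Myh11 and Acta2. The other, of 651 cells, was led by Tmem273, Sorcs1 and other genes that were not among the 16 markers, although it scored highest for mural markers. Cygb was among its 10 leading genes. The Tmem273/Sorcs1 cluster held 275 and 331 mutant but 21 and 24 control cells, so different clusters supplied most mural-like cells of each genotype.

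Mutant mural-like cells carried less Myh11 and more often carried Rgs5. Cells with at least 5 Myh11 UMIs per 10000, called Myh11-high, made up 41.4% (95% exact Clopper-Pearson interval 37.0 to 46.0) and 39.2% (35.1 to 43.5) of mutant against 93.4% (89.9 to 96.0) and 91.7% (88.1 to 94.5) of control mural-like cells. The means were 40.3% ± 1.56 and 92.6% ± 1.22 (SD, n = 2 each), a difference of -52.2 percentage points (-19.2 under fixed marker gates in place of clusters). By the same rule for Rgs5, 67.2% (62.8 to 71.4) and 64.2% (60.1 to 68.3) of mutant against 53.3% (47.4 to 59.2) and 53.7% (48.0 to 59.3) of control cells were Rgs5-high, with means of 65.7% ± 2.12 and 53.5% ± 0.274 and a difference of 12.3 points (6.90 under a stricter cell filter). Neither pair of groups overlapped, and the exact permutation test gave p = 0.333 for both, which is the smallest value that 2 libraries against 2 allow. Intervals cover counting error only. Cells near the Myh11 threshold made up 7.66 to 11.1% and those near the Rgs5 threshold 12.6 to 15.3% of each library. Crossing both thresholds, cells low in Myh11 and high in Rgs5 made up 44.0 and 45.1% of mutant but 6.23 and 7.67% of control mural-like cells. Cells high in both made up 23.3 and 19.2% of mutant and 47.1 and 46.0% of control cells. Myh11-low cells without high Rgs5 were 14.6 and 15.7% of mutant and 0.346 and 0.639% of control cells.

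**Figure D1:**
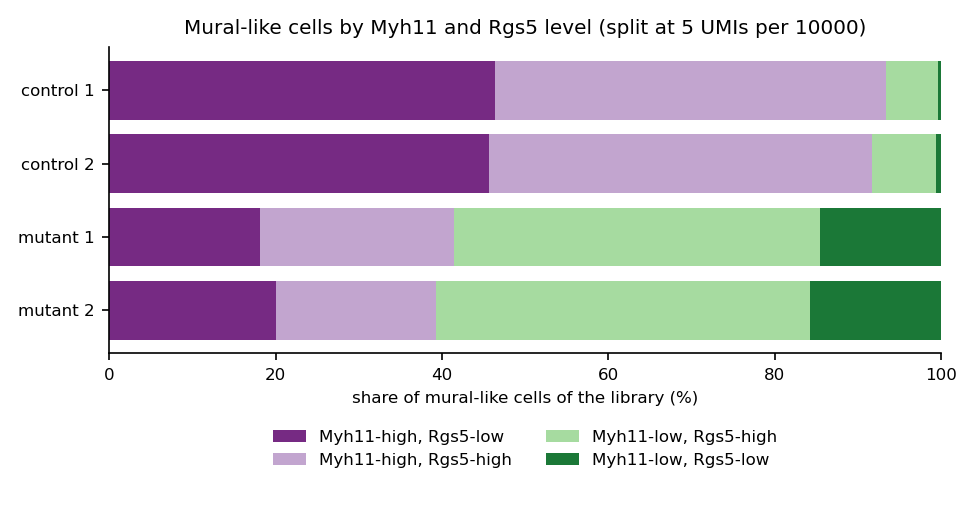
Share of mural-like cells (%, stacked bars adding to 100) in the 4 combinations of Myh11 and Rgs5 level for each of the 2 mutant and 2 control libraries. Myh11-low Rgs5-high cells took 44.0 and 45.1% of the mutant bars and 6.23 and 7.67% of the control bars.

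Across all mural-like cells, Kcnj8, Cspg4 and Cygb rose in the mutants, Rgs5 and Aoc3 fell, and Rgs4, Abcc9 and Higd1b did not pass the test. Log2 fold changes are given as mutant over control. All 8 members passed the filter on low counts, Kcnj8 through the mutant side alone. A gene counted as changed when its p from edgeR's quasi-likelihood test on counts summed per library, adjusted over all 5113 genes tested, was no more than 0.05. By that rule 5 of 8 members changed, beside 47.5% of all tested genes (23.8% higher and 23.7% lower). Since Kcnj8 entered by its high side, this count is not read against that share. The median log2 fold change was 0.11 over the members and -0.00 over all tested genes. The sizes of the changes and their behaviour within Myh11-high and Myh11-low cells differed from member to member. A summed difference between genotypes holds both the change in the kinds of cells counted and the change within a kind.

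**Figure D2:**
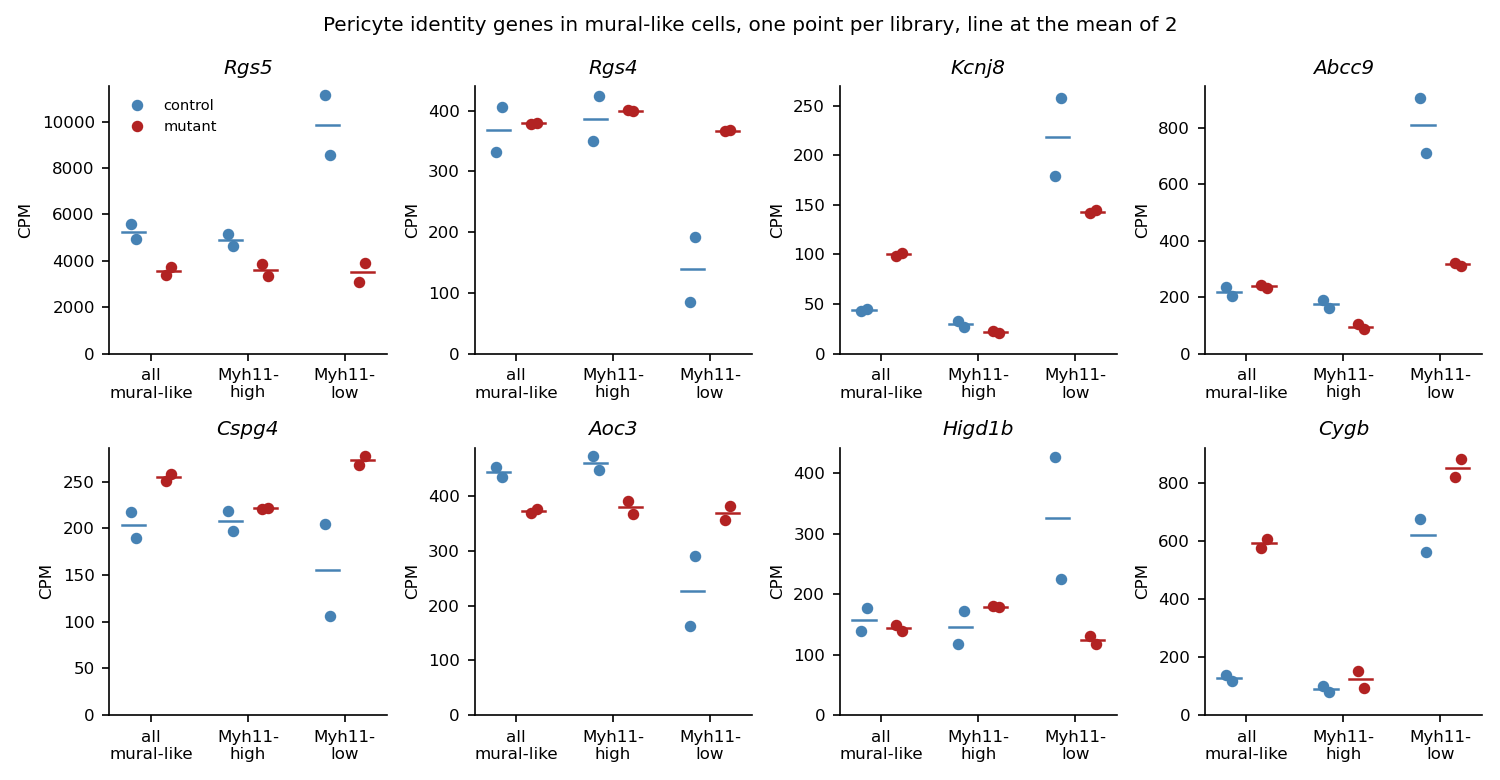
Level of each of the 8 genes (CPM, one panel per gene) in all mural-like cells, Myh11-high cells and Myh11-low cells. Each point is 1 library, coloured by genotype, and the line is the mean of 2. For Cygb the mutant points lie above the control points in all mural-like cells, at 576 and 608 against 139.7 and 117 CPM, while in Myh11-high cells the groups overlap.

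Rgs5, the regulator of G-protein signalling most used to find pericytes, was detected in more mutant cells but at a lower summed level. It reached 3376 and 3714 CPM in the mutant and 5562 and 4920.3 CPM in the control libraries, means of 3545 ± 239 and 5241 ± 454 (SD, n = 2 each), with both mutant libraries below both controls (log2 fold change -0.53 ± 0.07 SE, adjusted p = 5.89e-05). After each cell was thinned to 2000 UMIs (461 and 532 mutant and 284 and 307 control cells were deep enough), 70.7 and 67.9% of mutant and 57.7 and 60.9% of control cells had an Rgs5 UMI. Without thinning the shares were 77.6 and 76.1% of mutant and 64.7 and 69.0% of control cells. Erythroid cells, which should lack the gene, had an Rgs5 UMI in 0.557 to 1.72% of thinned cells. Median depths before thinning were 5659 to 6983 UMIs in mural-like and 4197 to 5901 UMIs in erythroid cells. Among Rgs5-high cells, where the split itself used the gene, its level was 5182 and 5724 CPM against 11129.6 and 10039.6 CPM (mutant against control), and among Rgs5-low cells 86.1 and 78.9 CPM against 66.5 and 73.4 CPM, given as a description. Under fixed marker gates in place of clusters, which ask for at least 3 of the 16 mural markers and keep fewer Myh11-low cells, the log2 fold change of Rgs5 in mural cells was -0.07 (adjusted p = 0.528).

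Within Myh11-high cells Rgs5 was 3859.6 and 3338 CPM in the mutant and 5166 and 4619.8 CPM in the control libraries (log2 fold change -0.41 ± 0.07 SE, adjusted p = 6.86e-04). All mutant values lay below all control values, and the call was lost under a stricter cell filter (0.0502) and under the marker gates (0.0752), both adjusted p-values. In Myh11-low cells the levels were 3099 and 3915 CPM against 11130.3 and 8576 CPM (log2 fold change -1.33 ± 0.16 SE, adjusted p = 2.15e-04). These control values came from 19 and 26 cells, and without mutant library 1 the adjusted p was 0.186. Most mutant Myh11-low cells (94.9 and 94.0%) but a smaller part of the control ones (26.3 and 46.2%) belonged to the Tmem273/Sorcs1 cluster. By cluster, Rgs5 was 3835 and 3316 CPM against 5659.6 and 4966 CPM in the Myh11/Acta2 cluster (log2 fold change -0.53 ± 0.08 SE, adjusted p = 2.06e-04) and 3113 and 3925 CPM against 4398 and 4360.3 CPM in the Tmem273/Sorcs1 cluster (log2 fold change -0.21 ± 0.12 SE, adjusted p = 0.301). As a class, cells low in Myh11 thus did not lack Rgs5 in either genotype by summed level. Single cells varied, as 69 of 277 and 86 of 333 mutant and 1 of 19 and 2 of 26 control Myh11-low cells were Rgs5-low.

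Rgs4, its neighbour on chromosome 1, did not pass the test in mural-like cells as a whole. It was at 379 and 379 CPM in the mutant and 332 and 406 CPM in the control libraries (log2 fold change 0.07 ± 0.09 SE, adjusted p = 0.549), and 46.6 and 45.7% of mutant and 46.5 and 51.8% of control thinned cells had a UMI against 0% of erythroid cells in each library. The groups overlapped, and the sign turned without control library 1 (log2 -0.07). In Myh11-high cells Rgs4 was 401 and 399 CPM against 349 and 423 CPM (log2 fold change 0.08 ± 0.10 SE, adjusted p = 0.57). In Myh11-low cells it was 366 and 368 CPM against 85.5 and 192 CPM, both mutant values above both controls (log2 fold change 1.50 ± 0.26 SE, adjusted p = 0.00263), though without mutant library 1 the adjusted p was 0.224. In the Tmem273/Sorcs1 cluster it was 364 and 357 CPM against 80.5 and 140.2 CPM (log2 fold change 1.80 ± 0.24 SE, adjusted p = 2.25e-04). Rgs4 in control cells of that cluster lay below its level in control Myh11-high cells, while in the mutants the levels of both Myh11 classes were closer to each other.

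Kcnj8, the channel pore, rose across mural-like cells, and in both genotypes its level was higher in Myh11-low than in Myh11-high cells. It stood at 98.3 and 102 CPM in the mutant and 42.6 and 44.8 CPM in the control libraries, with no overlap (log2 fold change 1.23 ± 0.11 SE, adjusted p = 2.37e-06), and 12.4 and 13.7% of mutant and 7.04 and 7.82% of control thinned cells had a UMI (28.5 and 30.8% of mutant and 12.1 and 13.1% of control cells unthinned, and up to 0.575% of thinned erythroid cells). Kcnj8 passed the filter, which asks for a count in 20% of the cells of one side, through the mutant side alone. With no filter it was called as well, at 1.32. In Myh11-high cells it was 22.5 and 21.1 CPM against 32.8 and 27.2 CPM, below the filter on low counts, and with no filter the log2 difference was -0.37 (adjusted p = 0.592). In Myh11-low cells it was 142 and 145 CPM against 179.5 and 258 CPM (log2 fold change -0.48 ± 0.22 SE, adjusted p = 0.173), and it passed as lower without control library 1 (-0.72, adjusted p = 0.0376). In the Tmem273/Sorcs1 cluster it was 145 and 145 CPM against 95.1 and 147 CPM (log2 fold change 0.35 ± 0.24 SE, adjusted p = 0.407). In neither Myh11 class did Kcnj8 rise past the test, and Myh11-low cells were the larger part of mutant mural-like cells.

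Abcc9, the sulfonylurea-receptor subunit that pairs with Kcnj8, did not pass the main test across mural-like cells and fell within both Myh11 classes. In all mural-like cells it was 242 and 233 CPM in the mutant and 236 and 203 CPM in the control libraries, which overlapped (log2 fold change 0.15 ± 0.09 SE, adjusted p = 0.187), though with no filter it passed as higher (0.24, adjusted p = 0.0471). In Myh11-high cells it was 105 and 85.6 CPM against 188 and 161 CPM, a fall with no overlap (log2 fold change -0.84 ± 0.13 SE, adjusted p = 1.35e-04), and under the marker gates the log2 fold change there was -0.25 (adjusted p = 0.293). In Myh11-low cells it was 321 and 311 CPM against 906 and 709 CPM (log2 fold change -1.18 ± 0.16 SE, adjusted p = 4.53e-04), with an adjusted p of 0.205 without mutant library 1. By cluster the fall passed the test in the Myh11/Acta2 cluster, 97.6 and 100.4 CPM against 217 and 188 CPM (log2 fold change -0.99 ± 0.12 SE, adjusted p = 1.86e-05), and did not in the Tmem273/Sorcs1 cluster, 325 and 303 CPM against 461 and 381 CPM (log2 fold change -0.31 ± 0.17 SE, adjusted p = 0.281). Of thinned cells, 31.2 and 30.3% of mutant and 22.5 and 21.2% of control mural-like cells had an Abcc9 UMI, against 0.309 to 1.16% of erythroid cells. A larger share of mutant cells with a UMI stood beside summed levels that did not differ beyond the spread.

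Cspg4, the NG2 proteoglycan, rose modestly across mural-like cells. It reached 251 and 259 CPM in the mutant and 217 and 190.1 CPM in the control libraries, with every mutant value above every control value (log2 fold change 0.36 ± 0.09 SE, adjusted p = 0.00514), and without control library 2 the adjusted p was 0.0594. Of thinned cells, 36.7 and 37.8% of mutant and 31.3 and 27.4% of control cells had a UMI (0.557 to 1.23% of erythroid cells). In Myh11-high cells the levels were 221 and 222 CPM against 218 and 197 CPM and did not differ by the test (log2 fold change 0.13 ± 0.10 SE, adjusted p = 0.38). In Myh11-low cells they were 268 and 278 CPM against 205 and 106 CPM (log2 fold change 1.02 ± 0.25 SE, adjusted p = 0.0191), with an adjusted p of 0.339 without mutant library 1, 0.1 without mutant library 2 and 0.088 without control library 2. In the Tmem273/Sorcs1 cluster they were 259 and 271 CPM against 117 and 73.4 CPM (log2 fold change 1.59 ± 0.25 SE, adjusted p = 8.04e-04). Cspg4 passed the filter there through the mutant side alone, where it was high, so nothing is read from that test.

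Aoc3, the amine oxidase, was slightly lower in the mutants at 370.0 and 377 CPM in the mutant and 453 and 436 CPM in the control libraries (log2 fold change -0.22 ± 0.07 SE, adjusted p = 0.0229). The groups did not overlap, but the adjusted p was 0.0919, 0.0708 and 0.091 without mutant 1, mutant 2 and control 1, and 0.101 with DESeq2. The call was also lost with no filter (0.357), with filterByExpr alone (0.0783) and under the stricter cell filter (0.112). Of thinned cells, 49.7 and 49.8% of mutant and 59.2 and 58.6% of control cells had a UMI, against 0.287 to 0.926% of erythroid cells. In Myh11-high cells Aoc3 was 392 and 368 CPM against 474 and 447 CPM (log2 fold change -0.24 ± 0.08 SE, adjusted p = 0.0439), a call that leaving out any 1 of the 4 libraries ended (adjusted p from 0.0568 to 0.217). In Myh11-low cells it was 357 and 382 CPM against 162 and 291 CPM (log2 fold change 0.82 ± 0.22 SE, adjusted p = 0.0309), in the other direction, and this call was lost without mutant 1, mutant 2 or control 1 (adjusted p from 0.106 to 0.38). In the Tmem273/Sorcs1 cluster the values were 362 and 387 CPM against 454 and 374 CPM (log2 fold change -0.04 ± 0.17 SE, adjusted p = 0.928), so the rise in Myh11-low cells was not found by cluster.

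Higd1b, the mitochondrial member, did not pass the test in mural-like cells as a whole, where it was 149 and 139 CPM in the mutant and 139 and 177 CPM in the control libraries (log2 fold change -0.10 ± 0.11 SE, adjusted p = 0.472). The groups overlapped, and 21.0 and 19.9% of mutant and 21.5 and 23.1% of control thinned cells had a UMI against 0% of erythroid cells. Its log2 fold change had no stable sign, at 0.09 without control library 2, and it passed the test as higher under the marker gates, at 0.46 (adjusted p = 0.00348), and as lower with called doublets removed, at -0.30 (adjusted p = 0.0353). In Myh11-high cells it was 179.8 and 178 CPM against 118 and 173 CPM (log2 fold change 0.33 ± 0.14 SE, adjusted p = 0.1), and it passed as higher without control library 2 (0.64, adjusted p = 0.00273) and in 5 other settings. In Myh11-low cells it was 131 and 118 CPM against 427 and 225 CPM (log2 fold change -1.19 ± 0.25 SE, adjusted p = 0.00794), and the adjusted p was 0.306, 0.091 and 0.0507 without mutant 1, mutant 2 and control 1. The control libraries themselves were far apart there and in the Tmem273/Sorcs1 cluster, 125 and 118 CPM against 117 and 254 CPM (log2 fold change -0.53 ± 0.26 SE, adjusted p = 0.229).

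Over all mural-like cells Cygb, the globin, changed most among the 8, which did not hold within either Myh11 class. It stood at 576 and 608 CPM in the mutant and 139.7 and 117 CPM in the control libraries (log2 fold change 2.24 ± 0.09 SE, adjusted p = 6.22e-09), and 53.1 and 50.9% of mutant and 16.2 and 13.7% of control thinned cells had a UMI, beside 0 to 0.829% of erythroid cells and 67.9 and 68.2% of mutant and 26.3 and 27.5% of control mural-like cells unthinned. In Myh11-high cells it was 152 and 93.1 CPM against 102 and 80.6 CPM, which overlapped (log2 fold change 0.46 ± 0.18 SE, adjusted p = 0.0765), and in Myh11-low cells 819 and 882 CPM against 675 and 563 CPM (log2 fold change 0.62 ± 0.16 SE, adjusted p = 0.0274). The difference in Myh11-high cells passed the test without mutant library 2, at 0.78 (adjusted p = 0.00149), and without control library 1, at 0.63 (adjusted p = 0.0258). It also passed with no filter, with the replicate block, under the gates and with the Myh11 threshold at 2 or 10 UMIs per 10000. The difference in Myh11-low cells did not pass it without mutant 1 (adjusted p = 0.352) or mutant 2 (0.305). By cluster Cygb was 141 and 112 CPM against 127 and 91.9 CPM in the Myh11/Acta2 cluster (log2 fold change 0.25 ± 0.15 SE, adjusted p = 0.244) and 825 and 870.2 CPM against 293 and 427 CPM in the Tmem273/Sorcs1 cluster (log2 fold change 1.33 ± 0.18 SE, adjusted p = 2.02e-04). The gap between Myh11-low and Myh11-high cells of a mutant library was larger than the gap between genotypes within a class.

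Counted by class, 3 of the 7 members tested fell in Myh11-high cells (Rgs5, Abcc9 and Aoc3) and 0 rose, where 23.2% of 4580 tested genes changed (11% higher, 12.1% lower, edgeR at the same threshold). Higd1b and Cygb, both with higher values in the mutants, had unadjusted p-values of 0.0319 and 0.0214 in that test. They were called as higher together, 2 of 7, with the replicate block, under the gates and with the Myh11 threshold at 2 UMIs per 10000, and 0 rose in DESeq2. The members' median there was 0.08. In Myh11-low cells 4 members rose (Rgs4, Cspg4, Aoc3, Cygb) and 3 fell (Rgs5, Abcc9, Higd1b) of 8, where 12.7% of 5815 genes changed (5.9% higher, 6.84% lower), with a median of 0.07 over members and -0.01 over all genes. Without mutant library 1 or 2, in fits that leave 1 mutant library, fewer members passed the adjusted threshold in Myh11-low cells. Calls over all tested genes were fewer in those fits too, so the losses are not read as particular to the members. With the Myh11 threshold at 2 UMIs per 10000, 0 rose and 2 fell (Rgs5 and Abcc9), so the 4 rises were lost. In the Myh11/Acta2 cluster 2 of 7 changed (23.8% of all genes) and in the Tmem273/Sorcs1 cluster 3 of 8 (13.5%). Of these 3, Cspg4 passed the filter through the mutant side alone, so nothing is read from that count. Neither cluster was refitted without a library.

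**Figure D3:**
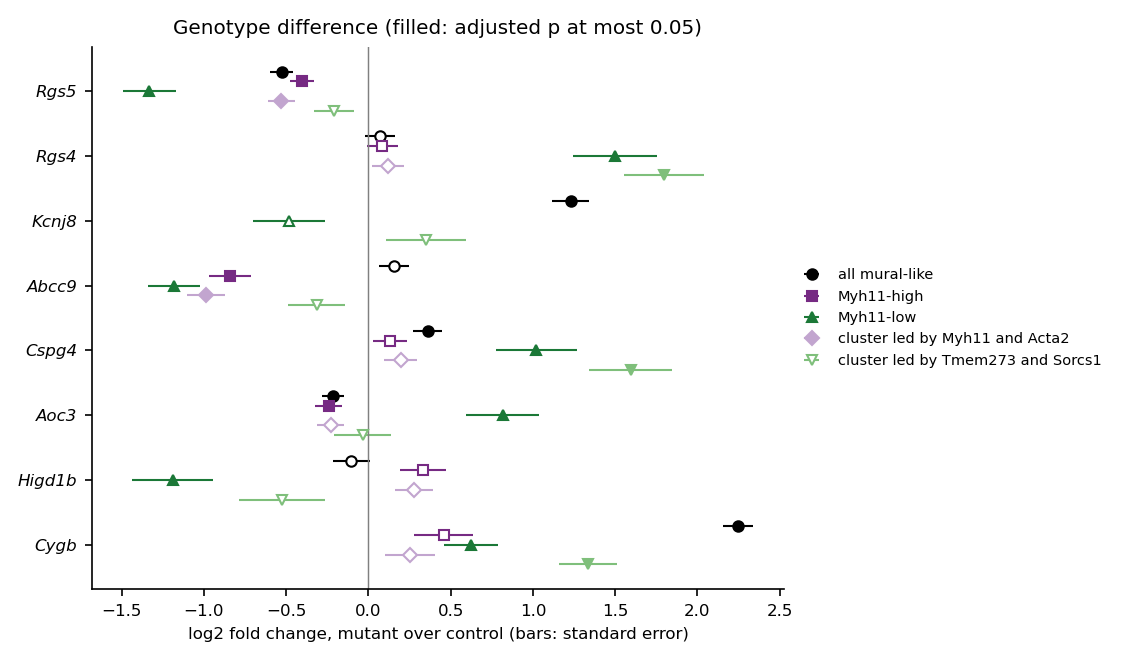
Log2 fold change of each gene, mutant over control, with its standard error, in all mural-like cells, Myh11-high cells, Myh11-low cells and the 2 mural clusters. Filled points have an adjusted p of at most 0.05. Kcnj8 and Cygb lie at 1.23 and 2.24 in all mural-like cells, and Abcc9 lies at -0.84 and -1.18 in the Myh11 classes while it is at 0.15 in their sum.

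Whether the genotype effect differed between Myh11-high and Myh11-low cells was tested as an interaction, with library as a block. The difference of log2 fold changes, high minus low, was 0.97 ± 0.18 (SE, adjusted p = 0.00629) for Rgs5, whose fall was larger in Myh11-low cells. For Rgs4 it was -1.40 ± 0.26 (SE, adjusted p = 0.00629), and for Aoc3 -1.02 ± 0.26 (SE, adjusted p = 0.0342), both with more positive changes in Myh11-low cells. For Higd1b it was 1.58 ± 0.34 (SE, adjusted p = 0.0158). These 4 of 8 members passed, where 6.11% of 5520 genes did. Kcnj8 (0.10, adjusted p = 0.915), Abcc9 (0.39, adjusted p = 0.298), Cspg4 (-0.84, adjusted p = 0.0867) and Cygb (-0.13, adjusted p = 0.849) did not. Only 1 member passed in DESeq2 or without mutant library 2, 2 passed without mutant library 1 and 0 with the Myh11 threshold at 2 UMIs per 10000, where 5 had an unadjusted p under 0.05 in edgeR's test. The interaction was lost for Rgs5 without mutant 1 (adjusted p = 0.234), for Rgs4 without mutant 2 (0.0694), for Higd1b without mutant 2 (0.123) or control 1 (0.0996), and for Aoc3 without mutant 1, mutant 2 or control 1 (0.125, 0.283 and 0.102), while Cspg4 passed without control 1 (-1.27, adjusted p = 0.0203). The control Myh11-low class behind these 4 calls held 19 and 26 cells. Of these 26.3 and 46.2% belonged to the Tmem273/Sorcs1 cluster, against 94.9 and 94.0% of mutant Myh11-low cells. The class was thus not made up alike in the genotypes. By cluster, Rgs5 fell past the test in the Myh11/Acta2 cluster and not in the Tmem273/Sorcs1 cluster. In the latter the Rgs4 rise was called, while the Aoc3 rise and the Higd1b fall were not. That cluster was not made up alike either. Of its control cells 16 of 21 and 12 of 24 were Myh11-high, against 12 of 275 and 18 of 331 of its mutant cells. Under the filter on UMIs and features alone, the cluster led by the same genes held 3 and 5 control cells.

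Within libraries, Rgs5-high cells carried more of the channel, of Higd1b and of Cygb than Rgs5-low cells. With library as a block, the log2 difference, Rgs5-high over Rgs5-low, was 2.65 ± 0.24 (SE, adjusted p = 2.08e-04) for Kcnj8 and 2.44 ± 0.28 (SE, adjusted p = 5.64e-04) for Abcc9. It was 1.96 ± 0.11 (SE, adjusted p = 3.52e-05) for Higd1b and 2.29 ± 0.49 (SE, adjusted p = 0.0101) for Cygb. The size was not alike in the genotypes. Cygb was 739 and 780.3 CPM in Rgs5-high and 279.8 and 296 CPM in Rgs5-low cells of the mutants, and 274 and 229.6 against 6.77 and 10.8 CPM in those of the controls. Abcc9 was 325 and 313 against 91.7 and 87.5 CPM in the mutants and 435 and 378 against 38.4 and 37.2 CPM in the controls, and whether the sizes differed between genotypes was not tested. Rgs4 (0.05, adjusted p = 0.756), Cspg4 (-0.05, adjusted p = 0.789) and Aoc3 (-0.03, adjusted p = 0.835) did not differ by the test and had values near 0. Under the marker gates Aoc3 passed as lower, at -0.27 (adjusted p = 0.0456). Kcnj8 passed the filter through the Rgs5-high side alone, and with no filter it was called at 2.66. The count with Kcnj8 is 4 of 7 higher, leaving out Rgs5, where 25.4% of 5081 genes differed and 11.9% were higher. As Kcnj8 entered by its high side, the count is not read against that share. Leaving out any 1 library kept the count at 4, and under the gates 3 of 6 were higher and 1 lower.

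Split by Myh11 in the same way, Kcnj8 (-2.70 ± 0.17 SE, adjusted p = 2.89e-05), Cygb (-2.71 ± 0.18 SE, adjusted p = 3.14e-05) and Abcc9 (-1.87 ± 0.16 SE, adjusted p = 8.82e-05) were lower in Myh11-high than in Myh11-low cells. Rgs5 (-0.38, adjusted p = 0.217), Rgs4 (0.77, adjusted p = 0.0806), Aoc3 (0.56, adjusted p = 0.123), Cspg4 (0.10, adjusted p = 0.76) and Higd1b (-0.11, adjusted p = 0.847) did not pass. Kcnj8 passed the filter through the Myh11-low side alone, and with no filter it was called at -2.62. With Kcnj8 these are 3 of 8 members, with 37.4% of 5520 genes differing and 19.1% lower, and for the same reason the count is not read against that share. Both channel subunits and Cygb thus stood higher in cells with much Rgs5 and in cells with little Myh11, and Cspg4 passed neither split.

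**Figure D4:**
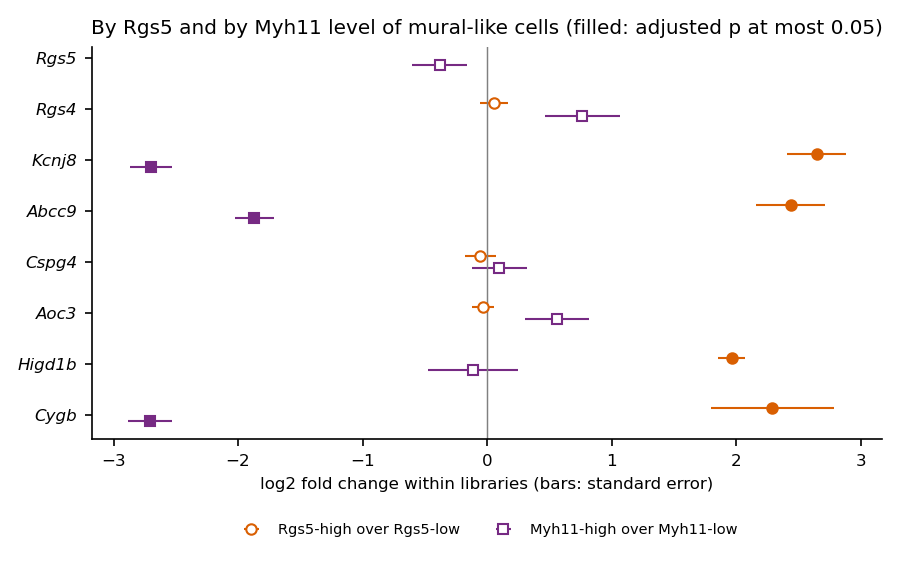
Log2 fold change with its standard error for each gene within libraries, Rgs5-high over Rgs5-low and Myh11-high over Myh11-low mural-like cells. Filled points have an adjusted p of at most 0.05. Kcnj8, Abcc9 and Cygb lie above 0 in the first comparison, at 2.65, 2.44 and 2.29, and below 0 in the second, at -2.70, -1.87 and -2.71.

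Between genotypes, Rgs5-high cells held more Cygb, Kcnj8 and Cspg4 and less Abcc9 in the mutants. Of these cells 208 of 318 and 247 of 352 were Myh11-low in the mutants but 18 of 154 and 24 of 168 in the controls, so the genotypes supplied different kinds of mural-like cells, and Kcnj8 rose in neither Myh11 class. Cygb was 739 and 780.3 CPM against 274 and 229.6 CPM (mutant against control, log2 fold change 1.66 ± 0.10 SE, adjusted p = 1.85e-07) and Kcnj8 138 and 142 CPM against 82.3 and 83.8 CPM (log2 fold change 0.81 ± 0.12 SE, adjusted p = 1.85e-04). Cspg4 was 263 and 274 CPM against 193 and 183 CPM (log2 fold change 0.57 ± 0.10 SE, adjusted p = 8.07e-04), and Abcc9 325 and 313 CPM against 435 and 378 CPM (log2 fold change -0.29 ± 0.10 SE, adjusted p = 0.0351). The Abcc9 call was lost without mutant 1, mutant 2 or control 1 (adjusted p from 0.0983 to 0.215). It was lost in DESeq2 (0.119), under the gates (0.978), with the threshold at 2 UMIs per 10000 (0.0868), with no filter (0.437) and with filterByExpr alone (0.0891) too. Of 7 members tested 4 changed, against 38.3% of all genes. Higd1b (-0.32, adjusted p = 0.0791) passed as lower without control 1 (-0.51, adjusted p = 6.58e-04), with the replicate block (-0.31, adjusted p = 0.0401), under the looser and the stricter cell filter and with called doublets removed (-0.43, adjusted p = 0.012). Rgs4 (0.20, adjusted p = 0.252) passed as higher without control 2 (0.47, adjusted p = 4.31e-04), with no filter and with the threshold at 10 UMIs per 10000, and Aoc3 (-0.15, adjusted p = 0.19) as lower under the gates (-0.42, adjusted p = 0.0162).

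Rgs5-low mural-like cells of controls almost lacked Cygb, and those of mutants did not. The genotypes supplied different kinds of cells here too, since 69 of 155 and 86 of 196 mutant but 1 of 135 and 2 of 145 control cells were Myh11-low. The counts were 351 and 447 in the mutant and 6 and 11 in the control libraries, that is 279.8 and 296 CPM against 6.77 and 10.8 CPM, with control values below the 19.3 CPM that free RNA of control droplets reached, and 27.6 and 29.2% of mutant and 0.758 and 2.78% of control thinned cells had a UMI. Of thinned erythroid cells 0 to 0.829% had one. In the Myh11-high part of these cells Cygb was between 6.79 and 25.2 CPM in all 4 libraries, mutants included, and Abcc9 between 16.8 and 38.5 CPM. Abcc9 was higher as well, at 91.7 and 87.5 CPM against 38.4 and 37.2 CPM (log2 fold change 1.27 ± 0.18 SE, adjusted p = 4e-05). Kcnj8 was 25.5 and 29.2 CPM against 3.38 and 7.83 CPM, below the filter. Cygb and Abcc9, 2 of 6 tested members, changed where 28.1% of 5100 genes did. Both passed the filter by the mutant side alone, so nothing is read from the count or from their tests. With no filter Abcc9 was called at 1.31. Under the marker gates neither was tested. Aoc3 (-0.29, adjusted p = 0.0627) passed as lower without control library 2 (-0.36, adjusted p = 0.0311), with the threshold at 10 UMIs per 10000 (-0.37, adjusted p = 0.00902) and with called doublets removed (-0.45, adjusted p = 0.00148). With doublets removed Rgs4 (-0.31, adjusted p = 0.0317) and Higd1b (-0.68, adjusted p = 0.0108) passed as lower too.

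Counted per cell after thinning to 2000 UMIs, mutant mural-like cells held UMIs of 3.21 and 3.16 of the 8 genes on average and control cells 2.62 and 2.64, and 40.8 and 41.0% of mutant against 25.4 and 26.1% of control cells held at least 4. Within Myh11-high cells the means were 2.63 and 2.40 against 2.52 and 2.52, which overlapped. Within Myh11-low cells they were 3.62 and 3.64 against 4 and 4. ECs held 0.341 and 0.317 against 0.558 and 0.578, and erythroid cells 0.0278 to 0.0431. The higher number per mutant mural-like cell was thus not seen inside either Myh11 class.

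Other genes of mural cells moved by group. Of 20 contractile genes, 18 were tested in mural-like cells, 17 fell and 0 rose by edgeR's test, also at an unadjusted p under 0.05 (median log2 fold change -1.15). Myh11, the smooth muscle myosin heavy chain, was 1092 and 1159 CPM against 3348 and 3433 CPM (-1.56), Acta2, smooth muscle actin, 4559.5 and 4181 CPM against 9757 and 10123 CPM (-1.15), and Ppp1r12b, a subunit of myosin phosphatase, 207 and 199.7 CPM against 652 and 641 CPM (-1.63). Synpo2 (-1.48), which bundles actin, and Myocd (-1.44), the coactivator of smooth muscle genes, fell too, as did Tagln (-0.89). Tagln turned in Myh11-low cells, where it passed as higher (1.19, adjusted p = 0.00467). Within Myh11-high cells 2 contractile genes rose and 4 fell of 18 (median -0.04), and within Myh11-low cells 2 rose and 7 fell of 14 (median -0.44). Both counts of falls include Myh11 itself, the gene that set the classes.

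Of 32 other mural and pericyte genes, 25 were tested in mural-like cells, 9 rose and 9 fell (median 0.02). Cd248, the sialomucin endosialin of perivascular and fibroblastic cells, was 128 and 120.2 CPM against 22.7 and 14.6 CPM (2.78), and Lamc3, a laminin chain, 65.3 and 81.2 CPM against 12.5 and 23.1 CPM (2.06). Both passed the filter through the mutant side alone, where they were high, so nothing is read from their tests or from the count of rises. Gucy1a1, a subunit of the nitric oxide receptor, was 251 and 244 CPM against 594 and 526 CPM (-1.14) and Ednra, an endothelin receptor, 178 and 183 CPM against 399 and 377 CPM (-1.07). Pdgfrb, the receptor that recruits pericytes, rose at 749 and 785 CPM against 488 and 466 CPM (0.72) over all mural-like cells, fell within Myh11-high cells, at 334 and 323 CPM against 448 and 421 CPM (-0.37, adjusted p = 0.00475), and did not pass the test in Myh11-low cells (0.13, adjusted p = 0.635). In Myh11-high cells 4 rose and 7 fell of 21 (median 0.03), and in Myh11-low cells 4 rose and 12 fell of 27 (median -0.47).

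Among the relatives of the members, 4 of 20 other RGS family genes were tested in mural-like cells, where Rgs6 (116 and 98.9 CPM against 368 and 309.9 CPM, log2 -1.62) and the R7-binding protein Rgs7bp (-0.64) fell and Rgs3 (1.41) and Rgs2 (1.28) rose. Of 18 relatives of the channel, HIGD, globin and amine oxidase genes 6 were tested, and 3 rose and 0 fell by edgeR's test, also at an unadjusted p under 0.05. All 3 encode copper amine oxidases that cross-link collagen, Loxl2 (2.06), Loxl3 (1.64) and Lox (0.88). Of 23 matrix and myofibroblast genes 21 were tested, 16 rose and 1 fell (median 0.81). Spp1, osteopontin, stood at 5926 and 5751 CPM against 221 and 338 CPM (4.41), Timp1, a protease inhibitor, at 3.10, Col6a3 at 2.02 and Tgfb1 at 1.49 on the log2 scale. Rgs2, Loxl3 and Timp1 passed the filter through the mutant side alone, where they were high. In controls they stood at 31.2 and 26.7, at 22.1 and 22.1 and at 14.2 and 11.1 CPM. Nothing is read from their tests or from the counts of rises of these lists in mural-like cells. Within Myh11-high cells Spp1 was lower in the mutants, at 71.3 and 82.9 CPM against 153 and 316 CPM (-1.57, adjusted p = 1.61e-04), and the rise was in Myh11-low cells, at 9284 and 8768 CPM against 1181 and 597 CPM (3.52, adjusted p = 4.6e-06). In Myh11-high cells 3 matrix genes rose and 7 fell of 16 (median -0.20), and in Myh11-low cells 8 rose and 2 fell of 21 (median 0.54).

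Dissociation and stress genes moved with the genotype in the same cells. Of 15 such genes tested in mural-like cells 9 rose and 3 fell (median 0.33). In Myh11-high cells 12 rose and 1 fell (median 1.18), and Junb, an AP-1 subunit, was 1686 and 1731 CPM against 491 and 427 CPM (1.93). Nr4a1 (1.94), Zfp36 (1.70) and Ier2 (1.57) rose beside it. In Myh11-low cells 0 of 14 changed by edgeR's test and 3 had an unadjusted p under 0.05 (median -0.08). The part of these genes in the falls of Rgs5, Abcc9 and Aoc3 was not tested.

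Markers of other cell types were measured in the mural-like cells as sums over fixed lists. The 16 mural markers summed to 13388 and 12528 CPM in mutant and 26321 and 26868 CPM in control libraries. The 12 endothelial markers summed to 107 and 141 against 155 and 236 CPM, and the 12 hematopoietic markers to 14.8 to 20.8 CPM with none of them at 10 CPM. Erythroid markers gave 488 and 570 against 178 and 407 CPM, reticular markers 1310 and 1376 against 2050 and 3022 CPM, and osteoblast markers 209 and 267 against 851 and 711 CPM. Chondrocyte markers gave 1267 and 2117 against 2166 and 3278 CPM, and in Myh11-low cells 1151 and 2135 against 402 and 9894 CPM, the last from the 26 cells of control 2. Fibroblast markers gave 1087 to 1356 CPM over the 4 libraries. In Myh11-low cells the mural markers still summed to 4764 and 4298 against 5706 and 6182 CPM. Endothelial markers there summed to 123 and 146 against 261 and 231 CPM, higher in the controls. Of the 12, Cdh5, Egfl7, Cldn5, Vwf, Stab2 and Ramp3 were at 0 in both control libraries, with only 19 and 26 such cells, and the sum came from the others. Reticular markers there gave 1553 and 1633 against 3542 and 3285 CPM and osteoblast markers 229 and 272 against 513 and 722 CPM. The median mitochondrial share of Myh11-low cells was 7.01 and 7.13% in mutant and 5.11 and 5.44% in control libraries. The free RNA of droplets with at most 100 UMIs held 186 and 226 against 101 and 111 CPM of Rgs5 and 38.6 and 36.5 against at most 19.3 CPM of Cygb. The part of these RNAs and shares in the results was not tested.

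Outside mural cells, the channel genes were the only members tested in ECs, and both had lower levels in the mutants. ECs numbered 554 and 692 in the mutant and 875 and 851 in the control libraries. Abcc9 was 145 and 145 CPM in the mutant and 367 and 392 CPM in the control libraries (log2 fold change -1.32 ± 0.07 SE, adjusted p = 1.78e-09) and Kcnj8 58.2 and 65.6 CPM against 96.0 and 123 CPM (log2 fold change -0.75 ± 0.11 SE, adjusted p = 2.75e-05), each without overlap. Kcnj8 passed the filter through the control side alone, where it was high, so nothing is read from its filtered test. With no filter it was called at -0.74. The other 6 members were below the filter there, and 60.8% of 5874 tested genes changed in ECs (30.7% lower). Inside ECs both channel genes were highest in the cluster led by Stab2 and Ubd, the Stab2 of sinusoidal vessels, which held 11.2 and 9.25% of mutant but 24.5 and 26.6% of control ECs. The cluster led by Vwf and Selp made up 23.8 and 25.3% against 9.71 and 9.28%.

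Within the Stab2/Ubd cluster Abcc9 was 930.1 and 882 CPM against 1039 and 1047 CPM (log2 fold change -0.13 ± 0.09 SE, adjusted p = 0.341) and Kcnj8 251 and 353 CPM against 230.5 and 281 CPM (log2 fold change 0.32 ± 0.16 SE, adjusted p = 0.199), neither past the test. Rgs4 rose there, at 354 and 369 CPM against 199 and 227 CPM (log2 fold change 0.84 ± 0.13 SE, adjusted p = 6.45e-04), where 17% of genes changed. In the Apln/Gpihbp1 cluster, with 27.5 to 31.8% of ECs in each library, Abcc9 was 88.2 and 138 CPM against 218 and 190.4 CPM (log2 fold change -0.77 ± 0.16 SE, adjusted p = 0.00117) and Kcnj8 71.2 and 76.2 CPM against 93.6 and 112 CPM (log2 fold change -0.40 ± 0.13 SE, adjusted p = 0.0262), both lower beside 46.5% of genes changed. Rgs5 reached 350.3 and 284 CPM against 148 and 201 CPM in the Gja5/Sema3g cluster, led by the arterial connexin Gja5, and was below the filter there. The lower levels of the channel genes in ECs as a whole thus stood beside a smaller share of the cluster with most of them, and lower levels within one other cluster.

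Reticular stromal cells (bone marrow stromal cells with Cxcl12 and Lepr, 778 and 934 mutant and 1717 and 1671 control cells) gained Abcc9. It was 163 and 157 CPM in the mutant and 59.3 and 55.1 CPM in the control libraries (log2 fold change 1.59 ± 0.07 SE, adjusted p = 2.05e-13), and Cygb was 114 and 130.4 CPM against 107 and 109 CPM (log2 fold change 0.29 ± 0.07 SE, adjusted p = 0.00102), beside 62.3% of tested genes changed. A cluster led by Mmp9 and Mmp13, matrix-cleaving proteases, made up 47.2 and 44.2% of mutant but 3.73 and 4.37% of control reticular cells (367, 413, 64 and 73 cells). Its reticular naming was weaker, with a marker score of 0.63 against 1.80 for the other reticular cluster, led by Adipoq, Kng2 and Hp. Mural markers scored next in the Mmp9/Mmp13 cluster, at 0.37, and 0 of the 12 reticular markers were among its leading genes. Inside it Abcc9 was 250.4 and 268 CPM against 131 and 126 CPM (log2 fold change 1.13 ± 0.16 SE, adjusted p = 1.95e-11) and Cspg4 139.8 and 154 CPM against 57.9 and 80.4 CPM (log2 fold change 1.19 ± 0.19 SE, adjusted p = 2.67e-09). Aoc3 and Cygb passed the filter there through the mutant side alone, where they were high, so their levels are given with no test and nothing is read from the number of members called. Aoc3 had 214 and 231 counts in the mutant and 3 and 0 in the control cells of the cluster (83.8 and 85.4 CPM against 5.60 and 0 CPM). Cygb was 79.9 and 94.3 CPM against 18.7 and 14.8 CPM, with control values no higher than the 19.3 CPM that free RNA of control droplets reached. Over all genes tested in the cluster 21.1% changed and 12.2% were higher.

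In the Adipoq/Hp/Kng2 reticular cluster, Abcc9 (75.1 and 61.2 CPM against 55.5 and 50.7 CPM, 0.38, adjusted p = 0.00199) and Cygb (149 and 162 CPM against 112 and 115 CPM, 0.50, adjusted p = 1.24e-07) rose too, beside 37.6% of genes changed. In a cluster led by Hs3st5 and Nlgn1 that matched no class, Abcc9 was lower at 116 and 163 CPM against 196 and 203 CPM (-0.45, adjusted p = 0.0393), where 5.83% of genes changed. Cspg4 was the member tested in the remaining classes. It rose in osteoblasts, 51.4 and 59.1 CPM against 38.0 and 32.7 CPM (log2 fold change 0.54 ± 0.12 SE, adjusted p = 0.00722, 32.5% of genes changed), fell in chondrocytes, 207 and 212 CPM against 286 and 293 CPM (log2 fold change -0.38 ± 0.05 SE, adjusted p = 4.87e-06, 66.7%), and was 157 and 171 CPM against 154 and 154 CPM in fibroblasts (log2 fold change 0.16 ± 0.06 SE, adjusted p = 0.0591, 27.1%), where it passed without mutant library 1 (0.22, adjusted p = 0.0297). Osteoblasts and chondrocytes fell into clusters of different size in each genotype. The osteoblast cluster led by Mepe held 101 of 227 and 109 of 257 mutant but 7 of 668 and 14 of 682 control osteoblasts. The chondrocyte cluster led by Ptgs2 held 783 of 1856 and 810 of 2025 mutant but 2 of 1170 and 3 of 1227 control chondrocytes. The fibroblast class was mixed too, with 1227 cells led by Msmp and Casr, 1057 led by Angptl7 and Slurp1 and 462 led by Clec3b and Col14a1. The first of these had 0 fibroblast markers among its leading genes. Under the filter on UMIs and features alone, a cluster led by the same genes was named chondrocyte. Cspg4 thus rose in one stromal class and fell in another, a difference that was not itself tested.

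**Figure D5:**
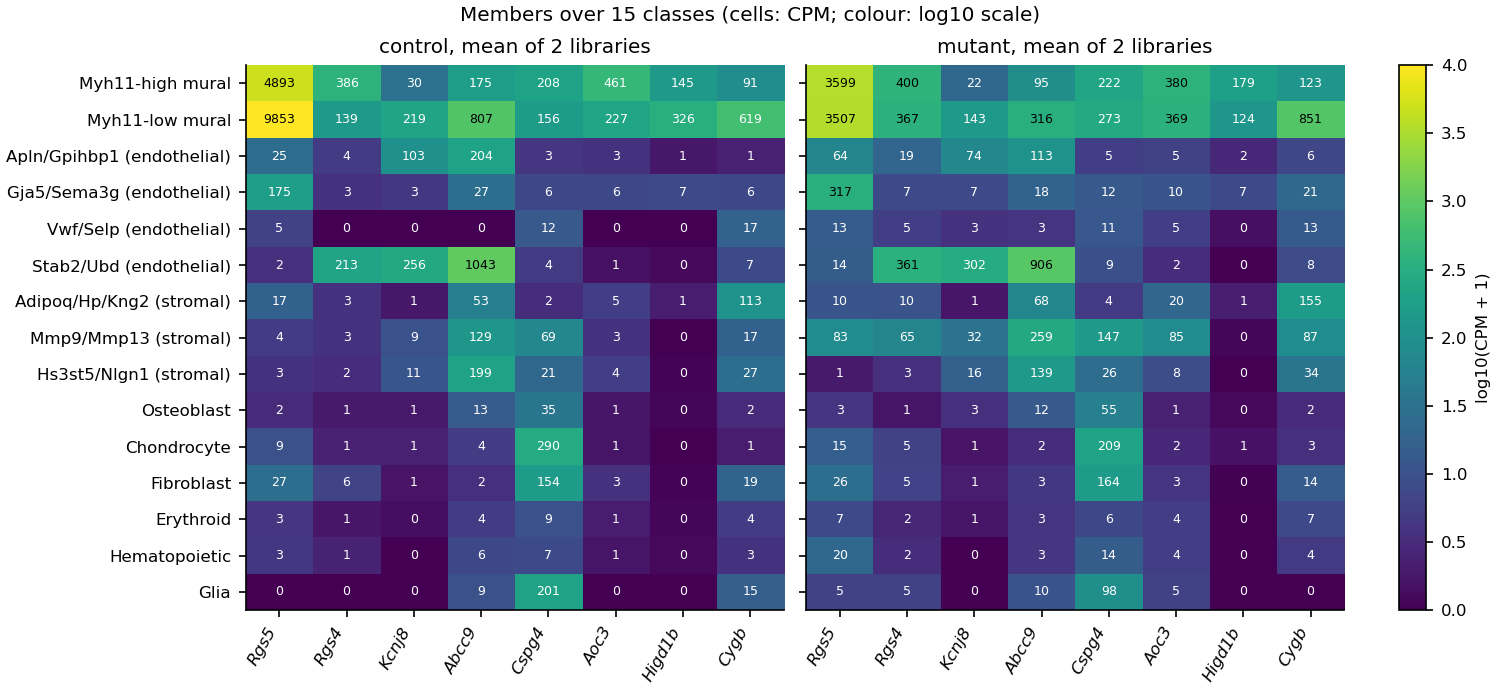
Mean level of the 8 genes (colour, log10 of CPM + 1) in 15 cell classes, with control libraries in one panel and mutant libraries in the other, 2 libraries each. Rgs5, Aoc3 and Higd1b are brightest in the mural rows and Abcc9 and Kcnj8 in the Stab2/Ubd endothelial row, while Cspg4 is brightest in the chondrocyte row of controls and in the Myh11-low mural row of mutants.

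Over the 15 classes, ranked by the mean of the 4 libraries, the members marked mural cells to different degrees. These levels are a description, with the spread over 4 libraries of both genotypes as SD. Rgs5 was at 6680.0 ± 3824 CPM in Myh11-low, 4246 ± 808 in Myh11-high and 246 ± 89.4 in Gja5/Sema3g endothelial cells, and at most 44.8 CPM in the rest, with the mural classes not apart beyond their spread. Its Myh11-low values stood above the Myh11-high ones in the controls and overlapped them in the mutants. Higd1b also stood highest in the mural classes, which were not apart beyond their spread, at 225 ± 143 in Myh11-low, 162 ± 29.6 in Myh11-high and 6.81 ± 2.90 CPM in the next class, Gja5/Sema3g. Its mural order turned with genotype, with Myh11-low above Myh11-high cells in the controls and below them in the mutants. Aoc3 was at 420.2 ± 48.8 in Myh11-high, 298 ± 98.2 in Myh11-low and 43.7 ± 47.3 CPM in the Mmp9/Mmp13 cluster. Rgs4 was at 393 ± 31.4 in Myh11-high, 287 ± 86.5 in Stab2/Ubd endothelial and 253 ± 139 CPM in Myh11-low cells, the last pair within their spread.

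The other members were highest outside mural cells or in one Myh11 class. Kcnj8 was at 279 ± 53.4 in Stab2/Ubd ECs, 181 ± 54.3 in Myh11-low, 88.1 ± 18.3 in Apln/Gpihbp1 ECs and 25.9 ± 5.32 CPM in Myh11-high cells. Abcc9 was at 974 ± 81.6 in Stab2/Ubd ECs, 562 ± 295 in Myh11-low, 194 ± 75.8 in the Mmp9/Mmp13 cluster, 169 ± 39.7 in the Hs3st5/Nlgn1 cluster, 159 ± 57.7 in Apln/Gpihbp1 ECs and 135 ± 47.7 CPM in Myh11-high cells, with the last 4 within their spread. Cspg4 was at 249 ± 46.5 in chondrocytes, 215 ± 11.8 in Myh11-high, 214 ± 79.2 in Myh11-low, 159 ± 8.33 in fibroblasts and 149 ± 78.7 CPM in glia, of which the first 3 overlapped. Cygb was at 735 ± 144 in Myh11-low, 134 ± 25.0 in the Adipoq/Hp/Kng2 cluster and 107 ± 31.3 CPM in Myh11-high cells, the last pair within their spread.

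Genes with patterns most like each member were taken by Pearson's r of log2(CPM + 1) over 60 sums, 15 classes in each of 4 libraries, among 13263 genes. The sums of a library share its cells' preparation and depth, so the values are a description. Most like Rgs5 were Gucy1a2 (r = 0.92), Stac (0.91) and Olfr558 (0.90), and most like Higd1b were Olfr558 (0.97), Kcnk3 (0.96) and H2-M9 (0.96). Aoc3 was nearest to Gucy1a2 (0.88), Des (0.88) and Kcne4 (0.86), and Rgs4 to Ptger2 (0.85), Tmem273 (0.81) and Astn2 (0.81). Among the genes nearest to Kcnj8 were Gm32067 (0.82) and Fblim1 (0.80), and among those nearest to Abcc9 Septin4 (0.83) and Nr2f1 (0.82). Cspg4 was nearest to Cpe (0.84), Gsn (0.84) and Septin5 (0.84), and Cygb to Naalad2 (0.91), C1s1 (0.89) and Mark1 (0.89). Among the members themselves, r was 0.92 for Rgs5 and Higd1b, 0.88 for Rgs5 and Aoc3, 0.85 for Kcnj8 and Abcc9 and for Aoc3 and Higd1b, 0.69 for the neighbours Rgs5 and Rgs4, and -0.00 and -0.07 for Cspg4 with Kcnj8 and Abcc9.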

How the data were processed

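The authors trimmed reads with cutadapt 3.5 and deposited expected counts from STARsolo 2.7.10a per barcode and feature, on GRCm39 with GENCODE M26 plus CreERT2 and reporter sequences, counting exons and introns and sharing multi-gene reads by expectation maximization. Between 9.09 and 9.95% of entries were fractions. These estimated counts are not normalized, and the deposited barcode lists were unfiltered. Tool versions are those of the submitters' processing notes.

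Barcodes with at least 1000 UMIs and 800 features were kept at no more than 15% mitochondrial and 5% hemoglobin counts and a complexity of at least 0.8. Cells were clustered with scanpy 1.11.5 (4000 variable genes without the 8 members, 50 components, 15 neighbours, Leiden resolution 1). Stromal clusters with at least 20% called doublets (Scrublet run per library) or fewer than 100 cells were left out, and classes needed at least 3 of a fixed marker list at 10 CPM. Erythroid, hematopoietic and glial clusters served as background or in the order of classes, without the rules on doublets and size. They included an erythroid cluster of 79 cells with 72.2% called doublets and a hematopoietic cluster of 116 cells with 30.2%. Counts were summed per library and class, rounded and tested with edgeR 4.0.16 (quasi-likelihood, TMM) on genes that passed filterByExpr and had a count in 20% of cells of either side, with Benjamini-Hochberg adjustment over all genes tested. Cells are not replicates. High and low classes were set at 5 UMIs per 10000.

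The 4 libraries held 69636600 to 85899079 UMIs. On simulated data for the mural libraries over the 12253 genes that passed filterByExpr, a larger set than the 5113 tested, 56% of 100 genes changed by log2 1 and 94% of 100 changed by log2 2 were recovered, with 7 false calls. Replicate libraries differed by more than sampling noise (chi-square per degree of freedom 1.86 for mutants and 1.74 for controls). Alternatives were DESeq2 1.42.0, other size factors, filters, thresholds and cell gates, the replicate number as a block, and leaving out each library. Single clusters were fitted with the main settings and with no filter alone, so their calls were not checked under the other alternatives. All 8 members were named with their values in every library, and up to 4 genes of each other list by the size of their change, plus Myh11, Acta2, Tagln and Pdgfrb. A gene among those most like the channel genes is not reported here. The members and lists were chosen with earlier results of these data known.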

Additional observations from a re-analysis of the deposited data

Results flagged for a closer look

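For 4 of the 8 genes the genotype effect itself differed between Myh11-high and Myh11-low mural-like cells, by the interaction test of edgeR with Benjamini-Hochberg adjustment, beside 6.11% of 5520 genes. Only 1 of the 8 passed in DESeq2 or without mutant 2, 2 without mutant 1 and 0 with the Myh11 threshold at 2 UMIs per 10000, where 5 had an unadjusted p under 0.05. The difference of log2 fold changes, high minus low, was 0.97 for Rgs5, -1.40 for Rgs4, -1.02 for Aoc3 and 1.58 for Higd1b. For Rgs4 and Aoc3 the sign is that of a larger value in mutant than control Myh11-low cells, and for Rgs5 and Higd1b of a smaller one. The control side of the Myh11-low class held 19 and 26 cells. The Tmem273/Sorcs1 cluster supplied 26.3 and 46.2% of them but 94.9 and 94.0% of mutant Myh11-low cells, so the class was not made up alike in the genotypes. Within that cluster the Rgs4 rise was called, while the Rgs5 and Higd1b falls and the Aoc3 rise were not. The cluster was not made up alike either, as 16 of 21 and 12 of 24 of its control cells were Myh11-high, against 12 of 275 and 18 of 331 mutant cells. In Myh11-low cells the 2 control libraries stood at 85.5 and 192 CPM for Rgs4 and at 427 and 225 CPM for Higd1b. Groups of 2 libraries are too small for a test of outlying samples.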

How the results depend on the processing

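Of 1040 values recomputed under alternatives, 777 single-gene values kept their direction and their side of the threshold, 69 fell below it, 39 rose past it and 39 changed sign. Of the summary values, 101 stayed equal or close to the main value by a fixed rule on their size, and 15 moved further. The causes of the following were not tested unless the alternative itself changes the cells or genes counted.

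Among counts of members called, the Myh11 classes gave 10 together, 2 without mutant 1, 6 without mutant 2 (range on leaving out a library 2 to 9) and 5 with the mural clusters in place of the Myh11 level, an alternative added after seeing the data. The Rgs5 classes gave 6, and 10 with called doublets removed (range 5 to 8). The 5 other classes gave 6, 22 with no filter on genes and 20 with filterByExpr alone, which test more members (range 6 to 7). The Myh11 split gave 3, and 5 with no filter. The interaction gave 4, 1 in DESeq2, 2 without mutant 1, 1 without mutant 2 (range 1 to 4) and 0 with the split at 2 per 10000. The mural count of 5 became 4 without any 1 library, the Rgs5 split kept 4 and the Myh11 split 3. The Rgs5-high share difference of 12.3 points was 6.90 under the strict cell filter (range 10.8 to 13.7). The Myh11-high difference of -52.2 was -58.0 under that filter, -19.2 under marker gates and -49.2 with the split at 10 per 10000 (range -53.3 to -51.1).

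Signs that changed, as log2 values, follow by setting. Under marker gates, Rgs4 was -0.18 in mural-like, -0.11 in Myh11-high and -0.23 in Rgs5-high cells and -0.19 in the Rgs5 split, Higd1b was 0.46 in mural-like cells, past the test (edgeR, adjusted p = 0.00348), and 0.40 in Rgs5-high cells, and Cspg4 was 0.038 in the Rgs5 split. With called doublets removed, Rgs4 was -0.076 in mural-like cells, -0.034 in Myh11-high cells and -0.078 in the Rgs5 split, and Kcnj8 -0.11 in the interaction. Under the strict cell filter Abcc9 was -0.099 in mural-like cells, Aoc3 0.13 in the Rgs5 split, and Rgs5 0.12 and Higd1b 0.22 in the Myh11 split. Under the filter on UMIs and features alone Cspg4 was -0.16 in fibroblasts, where a cluster led by Msmp and Casr was named chondrocyte (a cluster of 1227 cells with those leading genes is fibroblast otherwise). With the split at 2, Rgs4 was 0.036 in Rgs5-low cells, Cspg4 -0.0096 and Higd1b 0.56 in the Myh11 split and Cygb 0.38 in the interaction. With the split at 10, Rgs4 was -0.11 in the Rgs5 split, and Kcnj8 -0.36 and Cygb 0.11 in the interaction. With no filter and with filterByExpr alone Kcnj8 was -0.20 and -0.028 in the interaction. With clusters in place of the Myh11 level, Kcnj8 was 0.35 and Aoc3 -0.036 in the Myh11-low place. Of these sign changes, that of Higd1b in mural-like cells under the gates passed the test.

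On leaving out 1 library, the values that changed sign ranged as follows. Without control 1 the sign turned for Rgs4 in mural-like (-0.068 to 0.23), Myh11-high (-0.040 to 0.24) and Rgs5-high cells (-0.021 to 0.47), for Cspg4 (-0.13 to 0.057) and Aoc3 (-0.057 to 0.024) in the Rgs5 split and for Higd1b in the Myh11 split (-0.43 to 0.37). Without control 2 it turned for Higd1b in mural-like cells (-0.27 to 0.090), for Cspg4 in Rgs5-low cells (-0.037 to 0.28) and the Myh11 split (-0.12 to 0.26) and for Kcnj8 in the interaction (-0.36 to 0.46). It turned for Rgs4 in the Rgs5 split without mutant 1 (-0.0065 to 0.16) and for Cygb in the interaction without mutant 2 (-0.55 to 0.26). Under the gates the control Myh11-low class held 5 and 8 cells and was not fitted.

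The replicate number as a replicate block gave counts of 5, 12, 7 and 6 for mural-like cells, the Myh11 classes, the Rgs5 classes and the other classes. Same-numbered libraries shared only a number, with correlations of their deviations from -0.0388 to 0.0652 over 10 classes. The 19 and 26 control cells limit what the Myh11-low comparisons can resolve.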
